A study of Mus musculus with 10 samples.

Results

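The genes described here are 10 chaperones and chaperone partners of the endoplasmic reticulum (ER): Hspa5, Dnajb11, Hyou1, Sdf2l1, Manf, Hsp90b1, Calr, Canx, Pdia4 and Creld2. They were taken by gene symbol from a table of 32648 genes, and all 10 were among the 18825 genes with enough counts to be tested. They were chosen by measured values, namely a lower level in the right than in the left kidney of mice with aortic coarctation, so that comparison is given below as a description and without a test. RNA came from renin cells of adult C57BL/6 mice that carry the Ren1c-YFP reporter, at 8 to 12 weeks of age and 72 h after surgery. Mice with coarctation had the aorta narrowed at a point between the origins of the renal arteries. Sham mice, with the same reporter and strain, had the operation without exposure or narrowing of the aorta. From the cortex of each kidney, 1000 living cells with YFP were sorted and their RNA was amplified with the SMART-Seq v4 kit. Each kidney gave its own library, 10 in all, so that 3 mice with coarctation and 2 sham mice form 4 groups by operation and side. The labels give no blood pressures, and the cells were collected by their YFP, so cells that no longer carried it are not represented.

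Proteins that are secreted or sit in membranes fold in the ER. Hspa5 (BiP) binds unfolded chains there, a set of partners controls its binding cycle, Hsp90b1 (Grp94) acts on later folding steps, calreticulin and calnexin hold glycoproteins by their sugars, and disulfide isomerases form the bonds between cysteines. When unfolded protein collects, the sensors Ire1, Perk and Atf6 raise the transcription of many of these genes, which is called the unfolded protein response. Renin, the product of Ren1, is itself a secreted glycoprotein made in the ER of juxtaglomerular cells.

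Many genes of this response carry the ER stress response element in their promoters, written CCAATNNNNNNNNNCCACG, in which the factor NF-Y binds the CCAAT end and Atf6 the CCACG end. The RefSeq promoter table (GRCm38.p6, 250 bases before to 50 after each start) held 8 of the 10 genes, without Manf and Hyou1. On either strand, the full element was present in 5 of these 8 promoters, against 39 of 32851 promoters in the table (0.119%), and Hsp90b1 had 2 copies. The stretches below hold these elements and are shown because the spacing and the ends are shared across genes with different functions. They run 5′ to 3′ on the strand of the gene, and capitals mark the CCAAT and CCACG ends, or ATTGG and CGTGG where the element lies on the opposite strand. In the GENCODE vM21 annotation the Hspa5 stretch lies in the untranslated part of the first exon, although upstream of the RefSeq start, and the other 4 lie upstream of the gene. Positions are on GRCm38.
Hspa5 (chr2:34772020-34772048, plus strand): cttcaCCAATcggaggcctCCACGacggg
Hsp90b1 (chr10:86705513-86705676, minus strand): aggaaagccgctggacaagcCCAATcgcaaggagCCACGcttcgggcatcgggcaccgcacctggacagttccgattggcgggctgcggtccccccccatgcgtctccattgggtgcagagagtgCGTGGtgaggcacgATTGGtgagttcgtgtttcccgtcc
Calr (chr8:84847055-84847113, minus strand): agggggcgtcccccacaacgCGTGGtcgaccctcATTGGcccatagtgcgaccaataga
Canx (chr11:50325780-50325838, minus strand): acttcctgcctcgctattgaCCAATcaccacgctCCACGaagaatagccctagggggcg
Creld2 (chr15:88819500-88819558, plus strand): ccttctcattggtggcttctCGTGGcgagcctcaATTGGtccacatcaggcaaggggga

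The elements of Canx, Hspa5 and the upstream copy of Hsp90b1 point the same way as the gene, and those of Calr, Creld2 and the second copy of Hsp90b1 the opposite way. A related element, ATTGGNCCACG, was found in Dnajb11 only, from 7 to 17 bases after the start, and in 0.0365% of all promoters. The letters TGACGTGG, bound by Atf6 and Xbp1, were in 0 of the 8 promoters and in 0.676% of all. Sdf2l1 and Pdia4 had CCAAT and CCACG in the window but not at the spacing of the element. The short ends were common, since all 8 promoters held CCACG and CCAAT while 32.8% and 37.4% of all promoters did so, and both are contained in the full element. A match is a description of the letters and not of binding.

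The libraries held 20029817 to 32006229 estimated counts, with both kidneys of sham mouse 1 the lowest. These kidneys also stood apart on the first principal component (scores of 107.3 and 127.7, with all others below 2), and both kidneys of coarctation mouse 1 on the second (72.5 and 110.5, with all others below 11). Median changes without these mice are given for coarctation right against left and for each side against sham.

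The members spanned a wide range of levels. Mean levels over the 10 libraries, on the TPM scale, which is corrected for transcript length, ran in the order Manf (187), Hsp90b1 (152), Hspa5 (140), Canx (81.2), Calr (60.6), Sdf2l1 (27.6), Dnajb11 (26.6), Creld2 (23.3), Pdia4 (12.0) and Hyou1 (1.17). Neighbours in this order overlapped within at least 1 group, except Pdia4 and Hyou1, which were apart in all 4, and Sdf2l1 and Dnajb11, of which Sdf2l1 was higher in left kidneys with coarctation and Dnajb11 in the other 3 groups. Manf led in left kidneys with coarctation and in both sham groups, whereas Hsp90b1 led in right kidneys with coarctation (119.6 ± 5.44 TPM against 95.9 ± 15.8 TPM for Manf). Summed over the 10 genes, left kidneys of coarctation mice 1, 2 and 3 held 1009.6, 1063 and 1049.6 TPM. Their right kidneys held 453, 457 and 456 TPM. Sham mice 1 and 2 lay in between, at 616 and 697 TPM on the left and 634 and 674 TPM on the right. The 3 libraries of each coarctation group were closer to each other in this sum than to any library of another group.

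**Figure D1:**
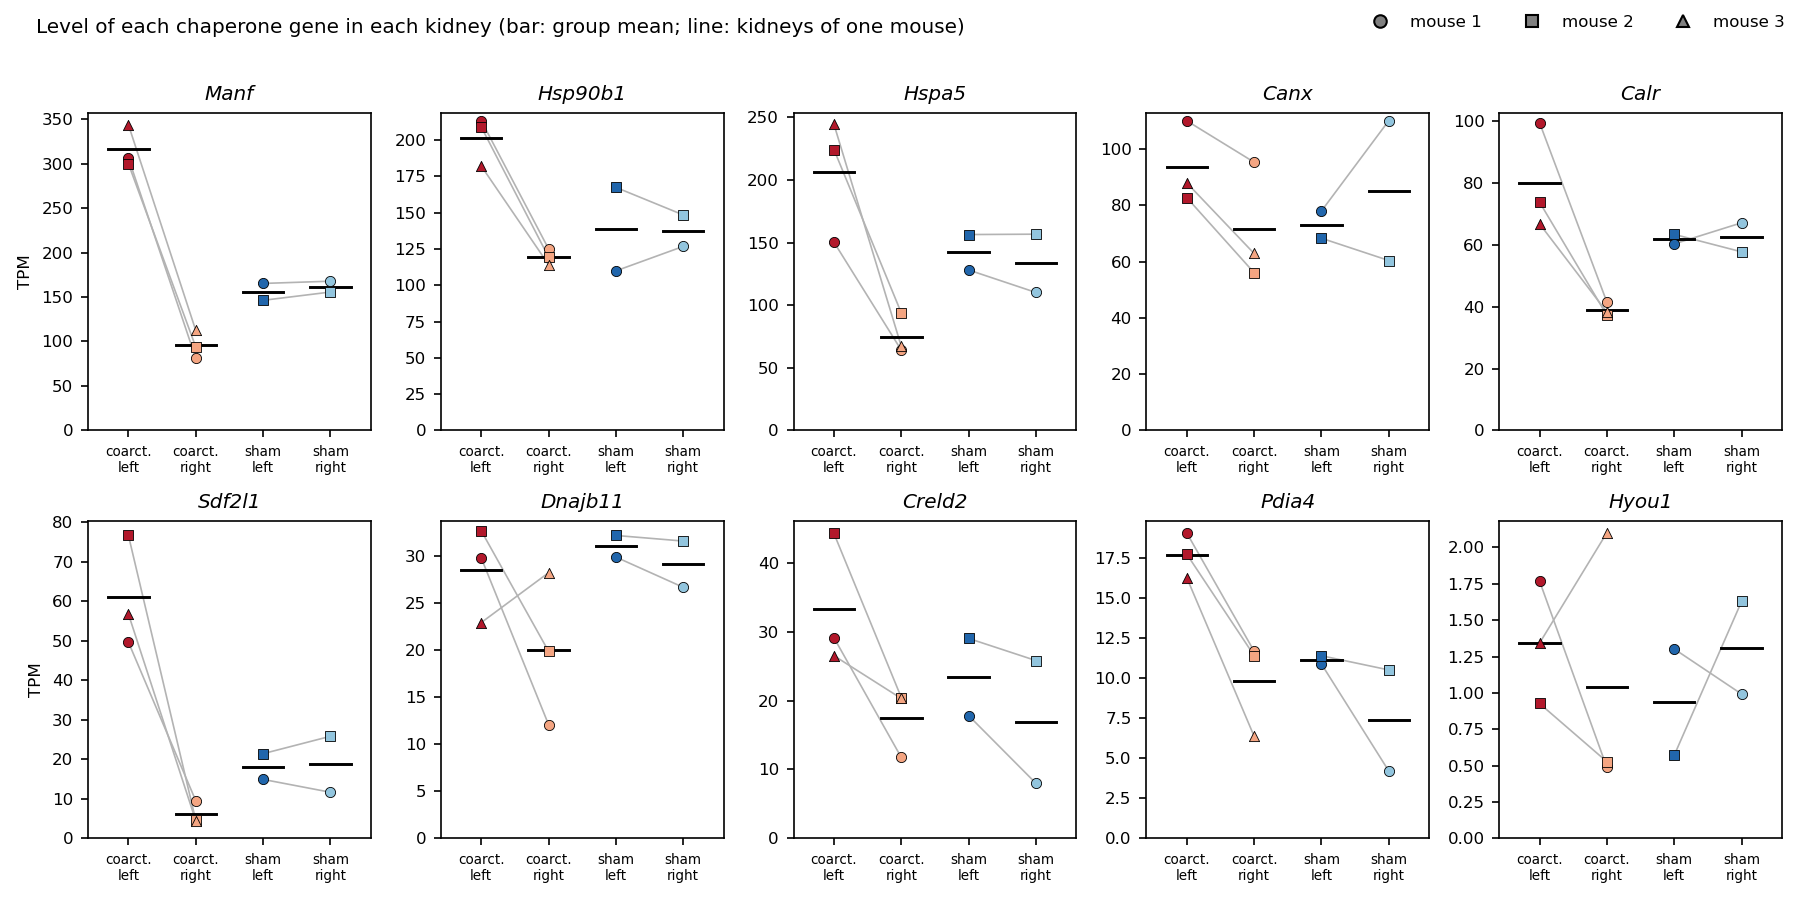
Level of each of the 10 chaperone genes in TPM (vertical axes, starting at 0, one scale per gene) in every library, by group. Points are kidneys, with the mouse number given by the shape, grey lines join the kidneys of a mouse, and bars are group means; group means are highest in left kidneys with coarctation except for Dnajb11 and lowest in their right kidneys except for Creld2, Pdia4 and Hyou1, and of the 10 genes only Manf and Sdf2l1 keep that order in every single kidney.

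Hspa5, the Hsp70 chaperone of the ER, stood at 150.3, 224 and 244 TPM in left kidneys of coarctation mice 1, 2 and 3 and at 64.0, 93.8 and 67.0 TPM in their right kidneys. In sham mice 1 and 2 it stood at 128 and 156 TPM on the left and 110.1 and 157 TPM on the right. The coarctation groups did not overlap each other (log2 change right minus left -1.63, SE 0.29), and the highest right kidney with coarctation was below both right sham kidneys. The left kidney of mouse 1 fell among the sham values.

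The partners of Hspa5 did not share one pattern. Sdf2l1, a small ER protein that acts with Hspa5 and its J-domain partners, was at 49.7, 76.7 and 56.8 TPM on the left and at 9.53, 4.59 and 4.46 TPM on the right in coarctation mice. Sham kidneys held 14.9 and 21.4 TPM on the left and 11.7 and 25.8 TPM on the right. In TPM every left kidney with coarctation was above, and every right kidney with coarctation below, all 4 sham kidneys, and the log2 change right minus left was -3.38 (SE 0.53), the largest of the 10. Manf, a secreted and ER-resident factor that binds Hspa5, had the same order at a higher level. It was at 307, 300.2 and 344 TPM on the left and 81.1, 93.9 and 112.5 TPM on the right in coarctation mice, and at 165 and 146 TPM in left and 168 and 156 TPM in right sham kidneys. Its log2 change right minus left with coarctation was -1.90 (SE 0.26), and the 3 groups of values (left, right and all sham) did not overlap.

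Dnajb11, a J-domain protein that delivers clients to Hspa5, differed from both. Left kidneys of coarctation mice held 29.8, 32.7 and 22.9 TPM and right kidneys 12.1, 19.9 and 28.2 TPM, so that mouse 3 went the other way. Sham kidneys held 29.9 and 32.2 TPM on the left and 26.7 and 31.6 TPM on the right, within the range of the left coarctation kidneys. The log2 change right minus left with coarctation was -0.69 (SE 0.33) and moved to -1.13 without both kidneys of mouse 3. Hyou1, a large Hsp70-like protein that exchanges the nucleotide of Hspa5, was barely detected, at 0.487 to 2.10 TPM over all libraries. Its average transcript length in the table ran from 753 to 3669 bases between libraries, whereas the longest was at most 1.20 times the shortest for the other 9 genes. Its TPM values depend on these lengths, and so do its estimated counts, which were derived from TPM. Its log2 change of -0.59 had an SE of 0.77, and without the right kidney of coarctation mouse 3 it was -1.59.

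Hsp90b1 was at 213.5, 209 and 182 TPM on the left and 125, 119.5 and 114 TPM on the right in coarctation mice. The sham values were 109.9 and 168 TPM on the left and 127 and 149 TPM on the right. Left kidneys with coarctation exceeded all 4 sham kidneys, whereas right kidneys with coarctation lay within the sham range (log2 change right minus left with coarctation -0.91, SE 0.28).

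Of the lectin chaperones, the soluble Calr separated the coarctation groups and the membrane-bound Canx did not. Calr was at 99.6, 73.9 and 66.9 TPM on the left and 41.5, 37.2 and 38.3 TPM on the right in coarctation mice, and at 57.8 to 67.2 TPM in the 4 sham kidneys (log2 change right minus left with coarctation -1.20, SE 0.29). Without the left kidney of mouse 1, its highest value, the change was -0.83. Canx was at 110.04, 82.7 and 88.0 TPM on the left and 95.3, 56.0 and 62.9 TPM on the right in coarctation mice (log2 change -0.52, SE 0.33). It was lower in the right kidney of all 3 mice, but the right kidney of mouse 1 lay above the left kidneys of mice 2 and 3. The sham range, 60.4 to 110.1 TPM, covered all but the lowest of these values.

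Pdia4, a disulfide isomerase, was at 19.1, 17.7 and 16.3 TPM on the left and 11.7, 11.4 and 6.37 TPM on the right in coarctation mice (log2 change -1.0, SE 0.43). Sham mice 1 and 2 held 10.9 and 11.4 TPM on the left and 4.20 and 10.5 TPM on the right. The left kidneys with coarctation stood alone above all 7 other libraries. Creld2, an ER protein with epidermal growth factor-like repeats and isomerase activity, was at 29.1, 44.3 and 26.5 TPM on the left and 11.7, 20.4 and 20.3 TPM on the right in coarctation mice (log2 change -1.09, SE 0.46). Its sham values differed by mouse, with 17.8 and 7.98 TPM in mouse 1 and 29.0 and 25.8 TPM in mouse 2.

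In the comparison from which the genes were chosen, the groups did not overlap in TPM, with the right kidney lower, for 7 of the 10 (2.97% of all tested genes), the exceptions being Canx, Dnajb11 and Hyou1. Within mice, 8 of the 10 were lower in the right kidney of all 3 coarctation mice (13.5% of all tested genes). The median log2 change over the 10 was -1.05, beside 0.02 over all tested genes, and -1.03 without both kidneys of coarctation mouse 1. With edgeR 0 of the 10 and 0% of tested genes passed an adjusted p of 0.05, and with the mouse as a block Manf alone of the 10 passed (0.0266% of tested genes). DESeq2 (0.404% of tested genes) and limma-voom with the mouse as a random block (0.0319%) each called Hspa5, Manf and Sdf2l1. These counts describe the choice of the genes and are no support for it.

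Sham kidneys, which did not enter that choice, ask whether the sides differ without a constriction. Differences within mice, right minus left on the log2 CPM scale (counts scaled to library size), lay between -0.30 and 0.41 for Hspa5, Hsp90b1, Calr, Canx and Manf in both sham mice. For Sdf2l1 they were -0.44 and 0.27 in mice 1 and 2. Creld2 and Pdia4 were lower on the right in mouse 1 (-1.24 and -1.45) and near level in mouse 2 (-0.16 and -0.11), and Hyou1 went from -0.47 to 1.48. None of the 10 passed the test of sham right against left (edgeR quasi-likelihood test), and 0% of tested genes passed. At an unadjusted p under 0.05 there were 0 of the 10, beside 1.1% of tested genes lower and 0.845% higher, and DESeq2 called 0 of the 10 and 0.149% of tested genes. Groups did not overlap in TPM for 1 of the 10, Pdia4, lower on the right (9.77% of all tested genes), and 3 of the 10 were lower on the right in both mice (24.3% of all tested genes). Missing the threshold in 2 mice does not show that the sides were equal.

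The difference between the sides with coarctation minus that in sham mice contains the chosen comparison, and its values are descriptive. It was negative for all 10 genes, with a median log2 value of -0.97, from -3.42 (SE 0.78) for Sdf2l1 and -1.91 (SE 0.40) for Manf to -0.41 (SE 0.67) for Pdia4. With edgeR 0 of the 10 and 0% of tested genes passed, and DESeq2 called Manf and Sdf2l1 (0.181% of tested genes). The 2 sham mice carried much of the uncertainty, since without the right kidney of sham mouse 2 the value was 0.63 for Creld2 and 0.56 for Pdia4.

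**Figure D2:**
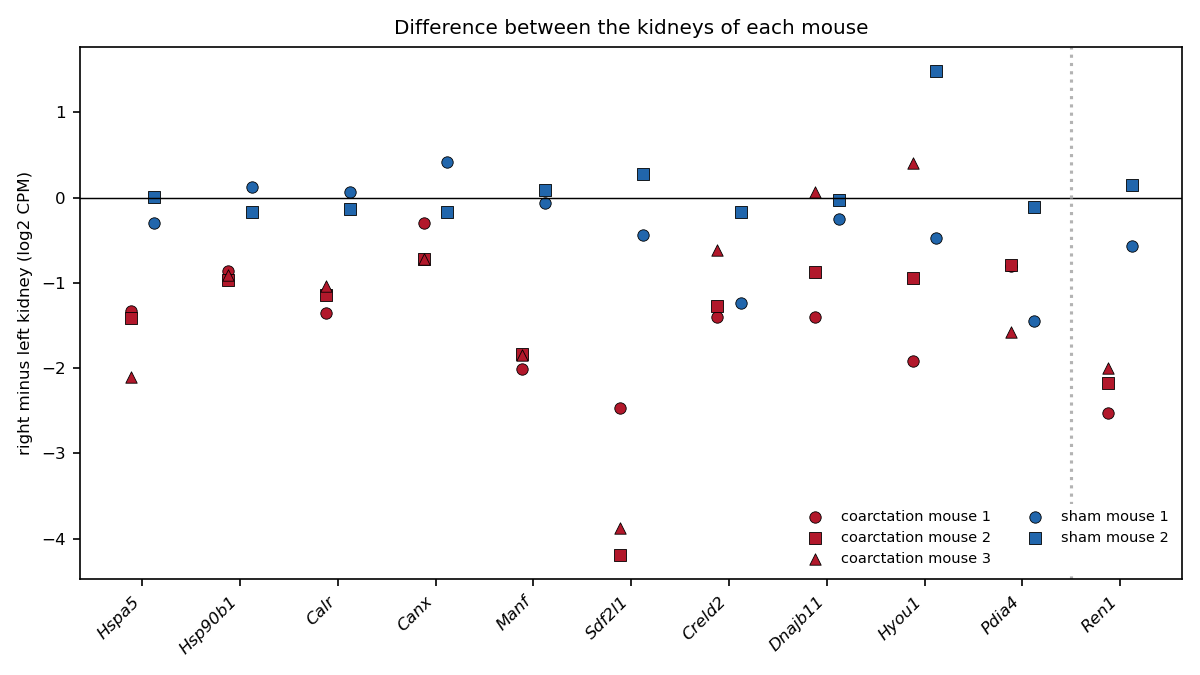
Right minus left kidney on the log2 CPM scale (vertical axis) for each of the 10 genes and for Ren1, one point per mouse. Red points are the 3 coarctation mice and blue points the 2 sham mice; the red points lie below 0 for all genes except Dnajb11 and Hyou1 in mouse 3, and the blue points scatter around 0 apart from low values of Creld2 and Pdia4 in sham mouse 1 and a high value of Hyou1 in sham mouse 2.

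Each coarctation side was next set against the same side of sham mice, which places the difference on one kidney, the other or both. These comparisons share the coarctation libraries with the one that chose the genes, and no mouse belongs to both groups compared. That choice by itself favours higher values in left and lower values in right kidneys with coarctation. The calls and overlaps given for each side are therefore descriptive and no support for the choice. In left kidneys all 10 genes had a positive log2 change (median 0.78, beside -0.02 over all tested genes, of which 51.2% were lower). Of lists described below, 15 of 19 disulfide isomerases and oxidases and 9 of 11 prolyl isomerases and collagen chaperones were also higher (medians 0.24 and 0.37). So were 10 of 12 cytosolic and mitochondrial chaperones and 19 of 20 proximal tubule genes (medians 0.16 and 0.58). Of 21 loop, distal tubule and collecting duct genes 17 were lower (median -0.85). Sdf2l1 was 3.93-fold higher (log2 change 1.97, SE 0.58) and Manf 2.45-fold higher (1.29, SE 0.29), but neither passed in edgeR (adjusted p = 0.912 for both). The other values were 0.93 (SE 0.49) for Pdia4, 0.84 (SE 0.88) for Hyou1, 0.79 (SE 0.32) for Hsp90b1, 0.78 (SE 0.32) for Hspa5, 0.73 (SE 0.52) for Creld2, 0.65 (SE 0.33) for Calr, 0.64 (SE 0.38) for Canx and 0.13 (SE 0.37) for Dnajb11. None of the 10 passed (0% of tested genes), 4 were higher at an unadjusted p under 0.05 (1.84% of tested genes), and DESeq2 called Manf alone of the 10 (0.207% of tested genes; adjusted p = 0.0195, with a range of 0.0195 to 1 over the alternatives). In TPM the left groups did not overlap, with coarctation higher, for 6 of the 10 (4.87% of tested genes), namely Hsp90b1, Calr, Canx, Manf, Sdf2l1 and Pdia4. On log2(TPM + 1) the median of the 10 was 0.50, with -0.11 over all tested genes, so that the size in left kidneys depends on the scaling, and Dnajb11 turned to -0.13. The median in left kidneys was 0.63 without both kidneys of sham mouse 1, 1.02 without those of sham mouse 2 and 0.71 without those of coarctation mouse 1.

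In right kidneys the picture was less uniform. The median log2 change of the 10 was -0.34, beside -0.05 over all tested genes. Sdf2l1 had the lowest value (-1.44, SE 0.53), followed by Hspa5 (-0.73, SE 0.31), Manf (-0.62, SE 0.28), Calr (-0.52, SE 0.32) and Dnajb11 (-0.44, SE 0.37). Hyou1 had -0.24 (SE 0.85), Hsp90b1 -0.07 (SE 0.31) and Canx -0.05 (SE 0.37), while the values of Creld2 (0.10, SE 0.51) and Pdia4 (0.52, SE 0.48) were positive. The median was -0.60 without both kidneys of sham mouse 1 and -0.34 without those of coarctation mouse 1. None passed in edgeR (adjusted p = 0.995 for the 5 lowest; 0% of tested genes), 3 were lower at an unadjusted p under 0.05 (1.92% of tested genes), and DESeq2 called 0 of the 10 (0.303% of tested genes). In TPM the groups did not overlap for 5 of the 10, lower with coarctation (11.0% of tested genes), which were Hspa5, Hsp90b1, Calr, Manf and Sdf2l1. On CPM scaled by TMM the corresponding counts were 8 in left kidneys (9.73% of tested genes) and 3 in right kidneys (9.18%), so that the balance between the sides also moved with the scaling. On either scale Manf and Calr were higher on the left and lower on the right without overlap. Hsp90b1 and Sdf2l1 were so in TPM only, and Hspa5 in CPM only.

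**Figure D3:**
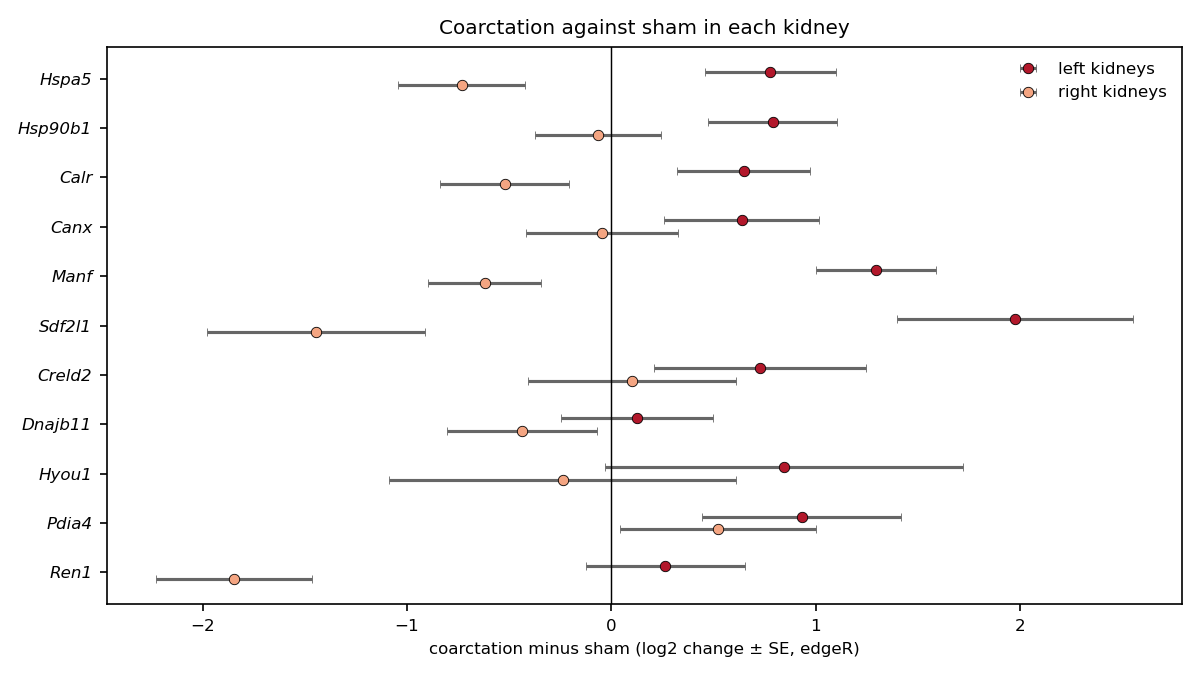
Coarctation minus sham as log2 change from edgeR (horizontal axis, bars are ± 1 SE) for left kidneys (dark) and right kidneys (light) of the 10 genes and Ren1. Left kidneys lie above 0 for all 10 genes, with Sdf2l1 at 1.97 and Manf at 1.29, while Ren1 is at 0.26 in left and -1.85 in right kidneys; none of the values for the 10 genes passed the adjusted threshold.

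Ren1 was set beside the chaperones because its product is the hormone these cells secrete. It stood at 29285, 48620 and 36877 TPM on the left and 5451, 11982 and 10836 TPM on the right in coarctation mice, and at 30521 and 43896 TPM in left and 21776 and 48591 TPM in right sham kidneys. EYFP, the reporter, was at 369 to 959 TPM in left and 60.6 to 174 TPM in right kidneys with coarctation. Ren1 in left kidneys with coarctation overlapped sham (log2 change 0.26, SE 0.39, adjusted p = 0.937 in edgeR, with a value of -0.026 without sham mouse 1), whereas in right kidneys it was lower (-1.85, SE 0.38, adjusted p = 0.995 in edgeR and 0.0357 in DESeq2, with a range of 1.09e-07 to 1 over the alternatives). In bulk RNA, fewer renin-rich cells in a sort and less message per cell cannot be told apart.

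Divided by Ren1, the chaperones gave another order. Their sum per 1000 TPM of Ren1 was 34.5, 21.9 and 28.5 TPM on the left and 83.0, 38.2 and 42.1 TPM on the right in coarctation mice. Sham mice 1 and 2 had 20.2 and 15.9 TPM on the left and 29.1 and 13.9 TPM on the right. Right kidneys with coarctation were therefore highest and left kidneys with coarctation stood above left sham kidneys, without overlap. Right minus left, the difference of a chaperone was smaller than that of Ren1 in all 3 coarctation mice for 8 of the 10 genes. The exceptions were Hspa5 in mouse 3 (lower than Ren1 by 0.10 on the log2 scale) and Sdf2l1 in mice 2 and 3. Ren1 itself differed by -2.52, -2.174 and -1.998 in mice 1, 2 and 3. The median over all tested genes was 0.0278, 0 and 0.0051. The median gene thus also differed less than Ren1, and the count does not set the chaperones apart. The share of all tested genes that did so was not computed.

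Set per 1000 TPM of Ren1, Sdf2l1 was even between the mice of 3 groups. It was at 1.70, 1.58 and 1.54 TPM in left kidneys with coarctation, at 0.489 and 0.488 TPM in left sham kidneys and at 0.535 and 0.532 TPM in right sham kidneys. Right kidneys with coarctation held 1.75, 0.383 and 0.412 TPM, so that mouse 1 alone kept the ratio of the left kidneys. Hspa5 was at 5.13, 4.62 and 6.63 TPM per 1000 TPM of Ren1 in left and 11.7, 7.83 and 6.19 TPM in right kidneys with coarctation, and at 3.23 to 5.06 TPM in sham kidneys. The ratios divide by a gene that itself differed between the groups and are given as values without a test.

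**Figure D4:**
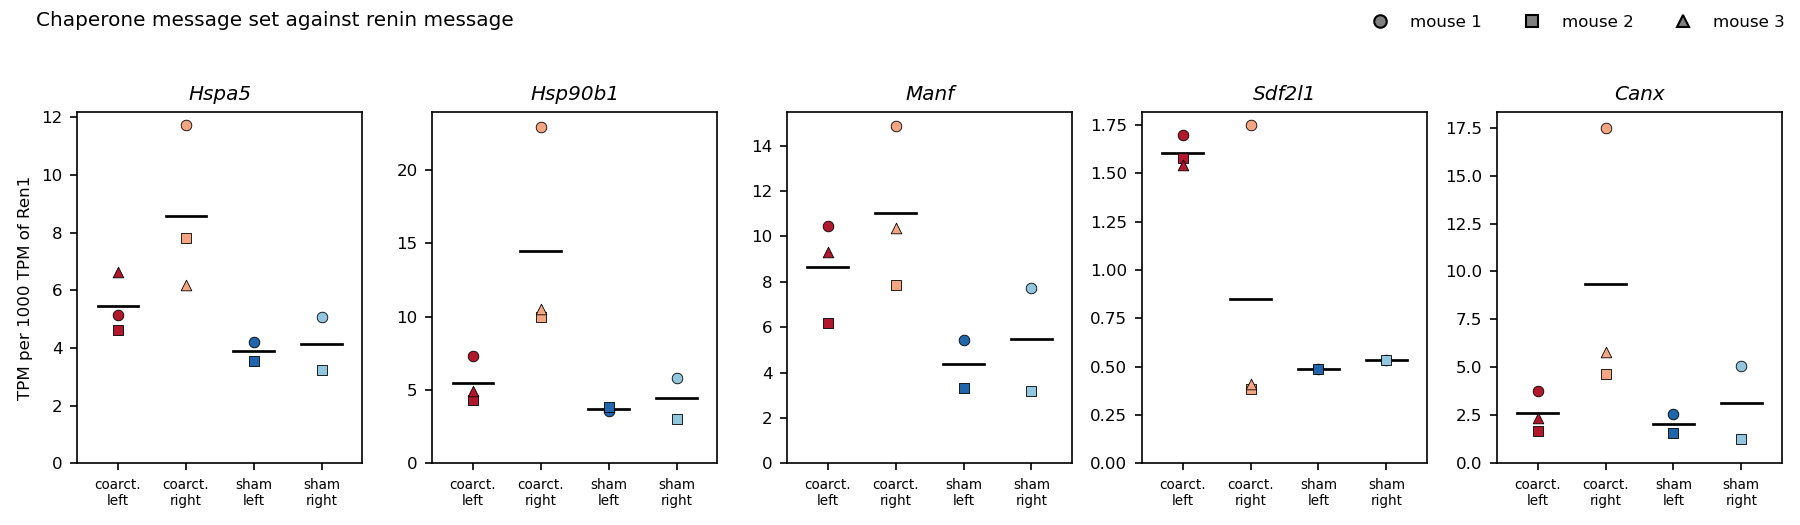
TPM of Hspa5, Hsp90b1, Manf, Sdf2l1 and Canx per 1000 TPM of Ren1 (vertical axes, starting at 0) in every library, with bars at the group means. The means of Hspa5, Hsp90b1, Manf and Canx are highest in right kidneys with coarctation, and for Hsp90b1 and Canx mouse 1 lies far above the other mice there. Sdf2l1 is high in all 3 left kidneys with coarctation (1.54 to 1.70) and near 0.5 in sham kidneys.

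Other ER genes were taken from lists by function, and their medians were nearer to 0. Of the 19 tested disulfide isomerases and oxidases besides Pdia4, 9 were lower in right than in left kidneys with coarctation, with a median log2 change of 0.02, and the most abundant, Selenom, Selenof, Prdx4 and Pdia3, had -0.53 (SE 0.30), -0.53 (SE 0.32), 0.15 (SE 0.42) and -0.71 (SE 0.35). Of 18 further co-chaperones and relatives of the members, among them J-domain proteins and receptor chaperones, 12 were lower (median -0.14), and the most abundant, Cnpy2, Lrpap1, Sdf2 and Dnajc1, lay between -0.24 and 0.18. The lectin cycle and calcium-binding list had 9 of 15 lower (median -0.27). Its most abundant genes all bind calcium, and of these Rcn3 and Sdf4 had -0.27 (SE 0.42) and -0.18 (SE 0.37), and Rcn2 and Nucb1 had 0.66 (SE 0.34) and 0.36 (SE 0.29). Among all tested genes 48.3% were lower.

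Peptidyl-prolyl isomerases and collagen chaperones had the median nearest to that of the 10 genes, with 10 of 11 lower and a median of -0.59. Fkbp2, the most abundant of them, was at 957 ± 226 TPM on the left and 499 ± 70.4 TPM on the right with coarctation (log2 change -1.10, SE 0.25). Ppib, Fkbp7 and Crtap had -0.33 (SE 0.25), -0.59 (SE 0.31) and 0.01 (SE 0.32). Genes of ER-associated degradation, which exports and destroys misfolded proteins, had 12 of 15 lower (median -0.28), led in abundance by Selenos at 271 ± 11.3 TPM on the left and 166 ± 29.7 TPM on the right (-0.88, SE 0.24). Derl2, Herpud1 and Vcp followed, with -0.26 (SE 0.33), 0.02 (SE 0.41) and -0.18 (SE 0.25). The sensors and transcription factors of the unfolded protein response had 14 of 16 lower (median -0.44). Of its most abundant genes, Ddit3 (Chop), Atf4 and Creb3 stood at -0.49 (SE 0.49), -0.53 (SE 0.43) and -0.07 (SE 0.57), and Ppp1r15a at 0.58 (SE 0.52). None of the 94 genes in these 6 lists passed in edgeR with or without the mouse as a block, and at an unadjusted p under 0.05 there were 7 lower and 0 higher (2.25% and 2.37% of all tested genes). The lists share the libraries of the comparison that chose the 10 genes, and their medians are set beside it only as values.

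Relatives of the members, most of them outside the ER, were set beside them as values of like proteins. The members were chosen by this same comparison, coarctation right against left, which by itself sets them apart from genes not so chosen. Whether the lower level was particular to ER proteins was not tested. Hspa8, the cytosolic relative of Hspa5, was at 798 ± 122 TPM on the left and 795 ± 200 TPM on the right with coarctation (log2 change -0.19, SE 0.35), and the mitochondrial Hspa9 had 0.22 (SE 0.29). Hsp90ab1 and Hsp90aa1, the cytosolic relatives of Hsp90b1, had -0.27 (SE 0.29) and -0.03 (SE 0.28). Among relatives in the secretory pathway, Sdf2 had -0.24 (SE 0.39), Cdnf 0.51 (SE 0.86) at under 4 TPM in every library, and Creld1, a membrane protein, -1.0 (SE 0.54). Over 12 cytosolic and mitochondrial chaperones, Hspa8, Hspa9, Hsp90ab1, Hsp90aa1 and the most abundant, Hspe1 (-0.15, SE 0.44), among them, the median was -0.04, with 8 lower and 0 passing in edgeR (0 at an unadjusted p under 0.05, 0 with the block).

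**Figure D5:**
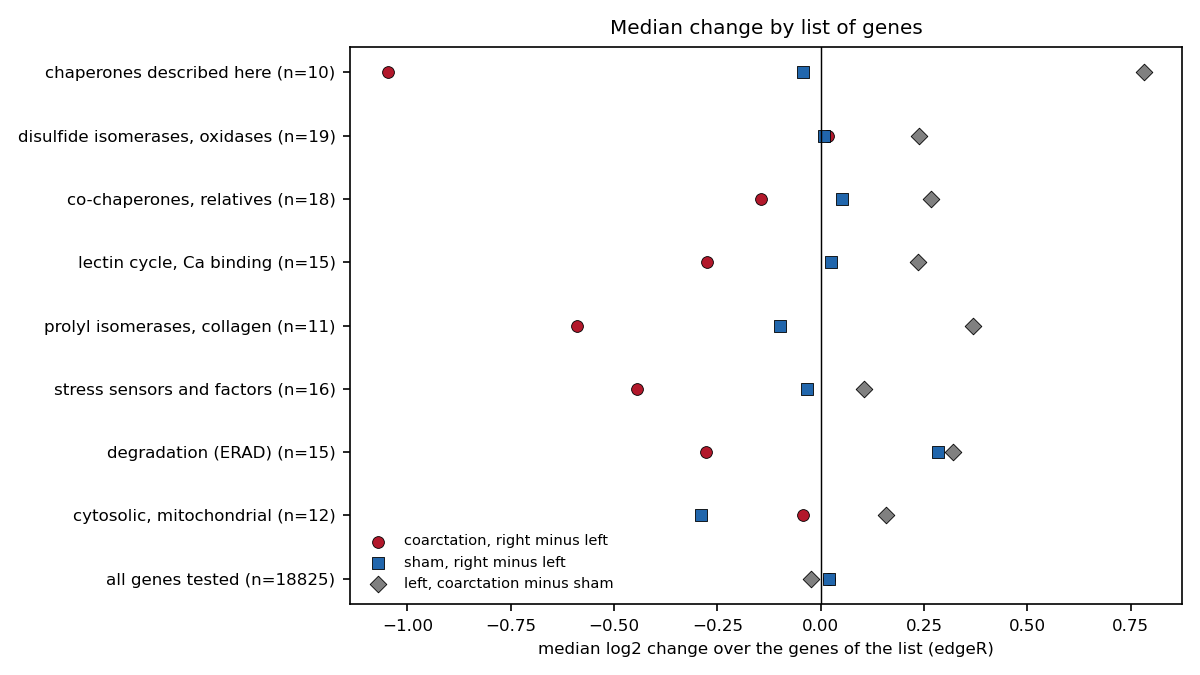
Median log2 change from edgeR (horizontal axis) over the tested genes of each list, for coarctation right minus left (circles), sham right minus left (squares) and left kidneys, coarctation minus sham (diamonds). The 10 chaperones lie at -1.05, -0.04 and 0.78, prolyl isomerases and collagen chaperones at -0.59 for coarctation right minus left, and all tested genes near 0.

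Other genes with the promoter element had no common direction. It was present in 32 of them, 17 of them tested, of which 8 were lower and 9 higher in right than in left kidneys with coarctation (median log2 change 0.03, 0 called in edgeR). Of the ER genes among them, the degradation gene Derl3 had by far the lowest value (-6.44, SE 1.51, adjusted p = 0.722 in edgeR) at 1.84 to 11.7 TPM in left and 0 to 0.229 TPM in right kidneys with coarctation. Pdia6 had -0.70 (SE 0.35), Dnajc3 -0.37 (SE 0.30) and Syvn1 -0.28 (SE 0.51), whereas the mannosyltransferase gene Alg12 had 0.96 (SE 0.83) and Calr4, at no more than 0.642 TPM, 0.86 (SE 1.59). Sdf2l1, with the largest change among the 10, lacked the element in the window examined.

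Among 5992 genes that averaged log2 CPM of 4 or more, 5 had a profile over the 10 libraries closest to the mean profile of the 10 chaperones, by the root mean square difference of centred log2 CPM. They were Ssr4 (0.171), a subunit of the translocon-associated complex, Ccni (0.222), a cyclin, Krtcap2 (0.236), a subunit of the oligosaccharyltransferase, Mgp (0.259), a secreted matrix protein, and Rpl10-ps3 (0.260), a pseudogene whose counts cannot be separated with certainty from its parent. The profile itself had a root mean square of 0.570. Ssr4 was at 397 to 489 TPM in left and 226 to 264 TPM in right kidneys with coarctation, and at 253 to 333 TPM in sham kidneys.

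Mitochondrial transcripts took 3.51% to 8.45% of TPM, and markers of other cells were present. The summed level of 20 proximal tubule genes was 1908 to 12354 TPM in left and 2786 to 6123 TPM in right kidneys with coarctation and 1437 to 6698 TPM in sham kidneys. Of these genes 19 were lower in right than in left kidneys with coarctation (median log2 change -0.45), but the mice differed. From left to right the sum went from 2963 to 2786 TPM in mouse 1 and from 12354 to 6123 TPM in mouse 3. In mouse 2 it rose from 1908 to 3980 TPM. For 21 loop, distal tubule and collecting duct genes, led by Tmem213, Atp6v1g3, Fxyd4 and Umod, the sums were 248 to 798 TPM, 394 to 2141 TPM and 363 to 1184 TPM in the same order, with a median change of 0.99. For 19 leukocyte genes, led by Cd74, H2-Ab1, Lyz2 and Tyrobp, they were 83.5 to 649 TPM, 383 to 1074 TPM and 148 to 486 TPM, with a median change of 0.30. The 14 podocyte genes, led by Enpep, Cdkn1c, Synpo and Clic3, summed to 119 to 136, 80.2 to 112 and 92.1 to 191 TPM. Of these 10 were lower in right than in left kidneys with coarctation, with a median change of -0.48. At an unadjusted p under 0.05 in edgeR 3 were lower (2.25% of tested genes). The 12 endothelial genes, led by Emcn, Esam, Ehd3 and Egfl7, summed to 84.9 to 126, 127 to 132 and 110 to 148 TPM. Their median change was -0.04. The right kidney of coarctation mouse 1 had the highest sum of both the distal and the leukocyte genes. Globin and other erythroid genes, 5 in all, summed to 2086 to 4735 TPM in left kidneys with coarctation and 921 to 4343 TPM in sham kidneys, and ran from 152 TPM in the right kidney of coarctation mouse 1 to 15981 TPM in that of mouse 3. No listed marker was at 0 in every library, and the part of these cells in the chaperone values was not tested.

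Plasma cells are rich in ER chaperones, and 7 of their markers summed to 48.8 to 78.1 TPM in left and 29.5 to 70.1 TPM in right kidneys with coarctation and 56.2 to 110.4 TPM in sham kidneys. Most of this was Sdc1, also an epithelial gene. The immunoglobulin gene Igkc was at 0.171 to 3.36 TPM in left and 0 to 6.68 TPM in right kidneys with coarctation and at 0 to 0.109 TPM in sham kidneys, and neither difference from sham passed in edgeR (adjusted p = 0.912 on the left and 0.995 on the right). Jchain stayed between 0.101 and 0.763 TPM and Mzb1 between 0 and 3.26 TPM over all libraries.

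In the annotation, Manf (chr9:106838312-106891979, minus strand, 5 exons) overlaps 4 other genes, of which Rbm15b was in the table at 0.482 to 2.13 TPM, far below Manf. Hsp90b1 (chr10:86690209-86705509, minus strand, 18 exons) overlaps 3 genes and Dnajb11 (chr16:22857845-22879634, plus strand, 11 exons) 1 gene without values here. Whether counting used strand is not given in the sources used here, so that reads of such partners cannot be told apart. Hspa5 (chr2:34771970-34777547, plus strand), Calr (chr8:84841850-84846934, minus strand), Canx (chr11:50293961-50325673, minus strand), Sdf2l1 (chr16:17130138-17132383, minus strand), Creld2 (chr15:88819646-88826683, plus strand) and Hyou1 (chr9:44379490-44392369, plus strand) overlap no other annotated gene. Pdia4 (chr6:47796141-47813430, minus strand) holds a microRNA gene.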

How the data were processed

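Expression was measured by RNA-seq in 10 libraries of sorted renin cells. Per the file headers, the table the authors deposited gives TPM, estimated counts and average transcript length (a score in bases) for each gene and library, and states that the estimated counts were derived from TPM scaled by length and library size. Per the submitters' processing notes, FastQC and GRCm38 (mm10) were used. Neither aligner nor quantifier is named in the sources used here.

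Groups and mouse numbers were taken from the labels, which name the mice as biological replicates. Estimated counts were rounded. After filterByExpr 18825 genes were tested with edgeR 4.0.16 in R 4.3.3, by the quasi-likelihood test with TMM scaling in 1 model of all 10 libraries with a term per group, Benjamini-Hochberg adjustment over all tested genes and a threshold of 0.05. The common dispersion was 0.45, with 6 residual degrees of freedom. Differences within mice used log2 CPM with a prior count of 2. TPM are given per library or as mean ± SD (n = 3 for coarctation, n = 2 for sham). The reads carry no molecular identifiers.

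Alternatives were RLE scaling, library sizes without Ren1 and mitochondrial genes, no filter, DESeq2 1.42.0, limma 3.58.1 (voom, and log2(TPM + 1)), only the groups compared, the mouse as a block, and each library or mouse left out. Limma-voom with the mouse as a random block, the blocked fits with a mouse left out, and overlap in TPM were added after seeing the data. The kidneys of a mouse come from the same animal, so the numbers pair them, and the deviations of left and right kidneys from their groups correlated at 0.127, 0.05 and 0.031 in the coarctation mice and 0.398 in the sham mice.

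The members and all gene lists were chosen with earlier results of these data known. All 10 members are named throughout, Ren1 in some of the comparisons, and EYFP only by its TPM in coarctation kidneys. Also named are 7 relatives, the 4 most abundant genes of each list described (erythroid and proximal tubule genes excepted), and the 5 genes with the most similar profile without predicted genes. The ER genes named for their promoter element and the genes among the other observations were named after their values were seen. Promoters came from a RefSeq table of GRCm38.p6 and gene positions from GENCODE vM21.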

Additional observations from a re-analysis of the deposited data

How the results depend on the processing

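With 2 or 3 mice in a group, edgeR called 0 of the 10 chaperones in all 5 comparisons, and 0 with any library or mouse left out, in the unblocked and blocked fits. Members called in coarctation right against left were 3 without the filter on low counts (Hspa5, Manf and Sdf2l1), 3 by DESeq2, 3 by limma-voom with the mouse as a random replicate block and 1 with the replicate block in edgeR (Manf). The latter 2 kinds of fit use the pairing of kidneys. For the difference between the sides, 1 was called without the filter (Sdf2l1) and 2 by DESeq2 (Manf and Sdf2l1), and in left kidneys 1 by DESeq2 (Manf). The replicate block changed no other call among the members. No paired analysis was possible for coarctation against sham within a side because no mouse belongs to both groups. Without the filter 112, 19, 63, 67 and 70 genes of the whole table were called in coarctation right against left, sham right against left, the difference of these, left kidneys and right kidneys, and 76, 28, 34, 39 and 57 by DESeq2, against 0 in each by edgeR. In left kidneys the value of Dnajb11 turned from 0.13 to -0.13 on log2(TPM + 1) and to between -0.036 and 0.25 with a library left out, the lowest without the left kidney of coarctation mouse 1. That of Ren1 went from 0.26 to -0.026 without the left kidney, or both kidneys, of sham mouse 1. The median of the 10 in left kidneys ran from 0.63 to 1.02 with a library or mouse left out. Searching for CCACG alone raised the promoters with a match from 5 to 8 of 8. The cause of these differences was not tested.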

Other observations

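Fkbp11, Derl3 and Serpinh1 were picked out after their values were seen, and their values are given without a test of that choice. Fkbp11, a prolyl isomerase of the ER membrane found in secretory cells, was at 35.0, 44.6 and 34.4 TPM on the left and 7.91, 13.3 and 6.88 TPM on the right in coarctation mice, and at 10.3 to 30.1 TPM in sham kidneys. Its coarctation groups did not overlap, and every right kidney with coarctation except that of mouse 2 was below all 4 sham kidneys. Derl3, a channel component of ER-associated degradation with the promoter element described above, was at 1.84, 11.7 and 8.15 TPM in left kidneys with coarctation. It was at 0.0293, 0.229 and 0 TPM in their right kidneys and at 0.0271 to 1.25 TPM in sham kidneys. Left kidneys with coarctation were thus the only 3 of the 10 libraries above 1.3 TPM. Serpinh1, the collagen chaperone Hsp47, was at 25.6 ± 7.64 TPM on the left and 15.4 ± 5.38 TPM on the right with coarctation, and these groups overlapped.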
